A study of Mus musculus with 4 samples.

Results

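Vascular endothelial growth factor (VEGF) ligands and the receptors of VEGF and angiopoietin were followed in insulin-positive mouse islet cells, in 10 genes of the 39170 rows of the deposited gene table. The members, chosen by gene name, were the 4 ligands Vegfa, Vegfb, Vegfc and Pgf and the 6 receptors Kdr, Flt1, Flt4, Tek, Nrp1 and Nrp2. Each matched 1 row, with a status of OK in all 4 libraries. The angiopoietins themselves are not among the 10 and are described with their partners further on.

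The mice were MIP-GFP C57BL/6 males, 6 to 8 weeks old, a strain in which the mouse insulin 1 promoter drives green fluorescent protein. Islet cells positive for insulin were sorted on the glucose transporter Glut2 into a low gate (Glut2L) and a high gate (Glut2H). Each gate was sorted from mice injected intraperitoneally with streptozotocin (STZ) at 200 mg/kg, which had diabetes after 4 days, and from control mice given vehicle. STZ is a toxin that enters beta cells through Glut2. Each of the groups (Glut2L STZ, Glut2H STZ, Glut2L control and Glut2H control) holds 1 library of total RNA from 3 mice per treatment. Whether mice were pooled is not stated.

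There are no replicates, so nothing was tested, and the comparisons describe 4 libraries. Levels are in FPKM, which divides fragments by transcript length and by the mapped total, and this allows levels of different genes to be set side by side within a library. Differences are between log2(FPKM + 1) values, with Glut2L over Glut2H and STZ over control, and understate the change of low genes. The deposited table gives an interval for each FPKM, of unstated level, and its median half-width was 88.6% to 91.8% of the FPKM among genes of at least 1 FPKM. A difference of at least 2-fold on the log2(FPKM + 1) scale (1 on the log2 scale) is counted, over genes that reached 1 FPKM in at least 1 of the libraries compared, which are called measured.

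Slc2a2, which encodes Glut2, went against the gate labels. It had 33.7 FPKM in the library labelled Glut2L STZ and 10.8 in that labelled Glut2H STZ, and 41.0 in the one labelled Glut2L control and 8.74 in the one labelled Glut2H control. Ins2 stood at 175841 and 294540.0 FPKM in the libraries labelled Glut2L STZ and Glut2L control, against 52596 and 57345 in those labelled Glut2H STZ and Glut2H control. Ins1 had the same order, at 20766 and 30842 FPKM in the Glut2L STZ and Glut2L control libraries against 8471 and 8955 in the Glut2H STZ and Glut2H control libraries. Whether the gate labels were exchanged was not tested, and an exchange would turn round each gate difference given here. Gates are called by their labels for this reason, and with 1 library per group no gate result can be given without any of these libraries. Depth is unknown. The predicted gene Gm20594 took 4.15% and 3.86% of the summed FPKM in the libraries labelled Glut2L STZ and Glut2L control, against 68.5% and 61.0% in those labelled Glut2H STZ and Glut2H control.

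VEGF-A is the principal growth factor of blood vessels and is made by islet cells, whose dense capillary bed depends on it. It binds the receptor tyrosine kinases VEGFR2, encoded by Kdr, and VEGFR1, encoded by Flt1, on endothelial cells. The neuropilins act as co-receptors, and the angiopoietins act on a separate endothelial receptor kinase, TIE2, encoded by Tek. Ligand and receptor are thus usually made by different cells of the islet.

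The promoters of Vegfa and of its receptors Kdr and Flt1 are shown because these genes carry the contrast between ligand and receptors. Each sequence is the 250 bases before the annotated start, read 5′ to 3′ on the gene's strand, from RefSeq on GRCm38.p6. All lie on the minus strand, at chr17:46032378-46032627 for Vegfa, chr5:75978456-75978705 for Kdr and chr5:147726012-147726261 for Flt1. Capitals mark the GC box GGGCGG and the ETS letters CGGAAG or AGGAAG, on either strand.
Vegfa: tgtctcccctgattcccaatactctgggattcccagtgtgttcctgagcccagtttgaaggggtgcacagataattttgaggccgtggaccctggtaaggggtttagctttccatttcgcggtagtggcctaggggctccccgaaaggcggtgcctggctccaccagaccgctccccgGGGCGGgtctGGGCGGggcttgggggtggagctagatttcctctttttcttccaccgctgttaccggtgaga
Kdr: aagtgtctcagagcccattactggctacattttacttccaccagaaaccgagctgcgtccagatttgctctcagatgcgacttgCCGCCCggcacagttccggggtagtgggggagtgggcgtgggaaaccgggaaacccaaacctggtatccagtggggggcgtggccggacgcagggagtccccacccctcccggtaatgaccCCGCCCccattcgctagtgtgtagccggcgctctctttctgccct
Flt1: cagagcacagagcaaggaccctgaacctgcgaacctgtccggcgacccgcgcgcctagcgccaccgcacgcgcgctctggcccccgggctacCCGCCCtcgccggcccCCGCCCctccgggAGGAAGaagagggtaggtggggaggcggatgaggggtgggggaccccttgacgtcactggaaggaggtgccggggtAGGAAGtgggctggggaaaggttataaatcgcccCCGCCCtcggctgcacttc
The Vegfa window holds the GC box 2 times, at 72 and 62 bases before the start, and the Kdr window holds it 2 times, at 166 and 45 bases. The Flt1 window holds it 3 times, at 158, 142 and 19 bases, and AGGAAG 2 times, at 129 and 53 bases. No marked match overlaps another. Of 32851 promoter windows of the same length, 32.7% hold the GC box and 39.2% the ETS letters. ACGTG, a form of the core of the hypoxia response element, was searched on both strands. It is in 16.6% of all windows but in none of the windows of the 10 genes, which says only that these letters are not in these 250 bases. The other form of the core, GCGTG, was not searched. The Kdr window shown holds it, and the Flt1 window shown holds it on the opposite strand, as CACGC.

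Vegfa was the highest of the 10 genes in every library and stood at a similar level in all 4, while most of the receptors were many-fold lower in the libraries labelled Glut2L. Vegfa (ENSMUSG00000023951, GRCm38 chromosome 17, 46016993 to 46032369) had 97.9 FPKM in the library labelled Glut2L STZ and 87.8 in that labelled Glut2H STZ, and 83.3 in the one labelled Glut2L control and 71.7 in the one labelled Glut2H control. The highest value was 1.37 times the lowest. Vegfa ranked 774th, 790th, 1021st and 1007th of all rows in the Glut2L STZ, Glut2H STZ, Glut2L control and Glut2H control libraries, always within the top 7.23% of the rows that reached 1 FPKM. Its deposited intervals were wide, 12.6 to 214.6 FPKM in the Glut2L STZ library and 19.97 to 123.4 FPKM in the Glut2H control library, and overlapped in every comparison. The differences were 0.16 between the gates after STZ, 0.21 between the gates in control mice, 0.23 with STZ in the Glut2L libraries and 0.29 with STZ in the Glut2H libraries. Once the all-gene median was centred on 0, the gate difference after STZ was -0.08. With the summed FPKM of all rows set equal between libraries, the gate differences were 1.28 after STZ and 1.03 in control mice. Splice forms of Vegfa, which differ in how far the protein spreads, are not resolved by a gene table.

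**Figure D1:**
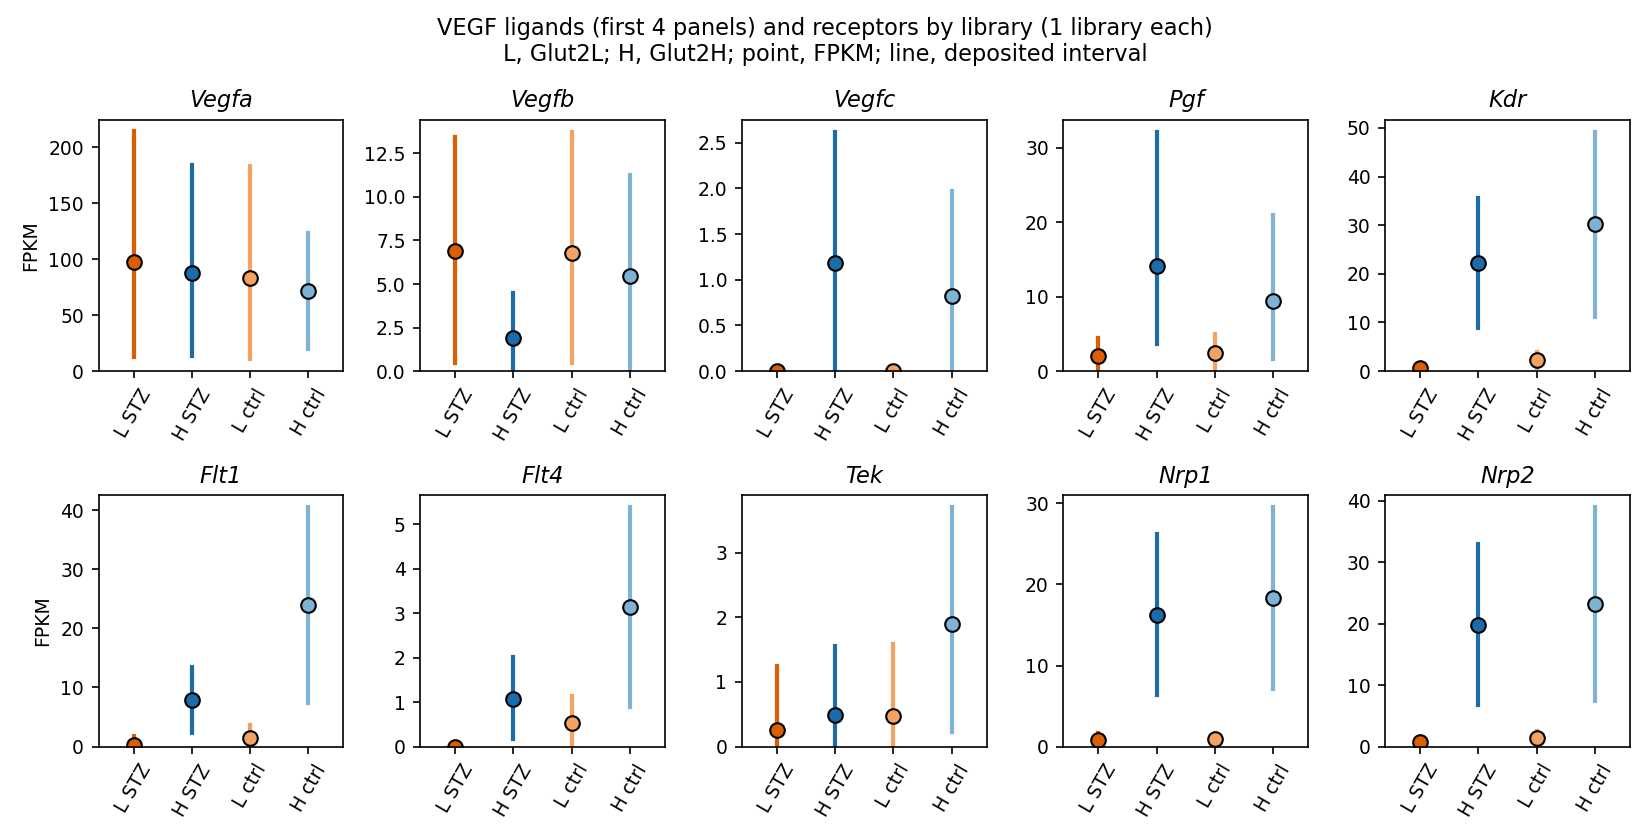
FPKM of the 10 genes (vertical axes, linear, from 0) in the 4 libraries (horizontal axes), with points for the deposited FPKM and lines for its deposited interval. Vegfa lies between 71.7 and 97.9 FPKM in all libraries, while Kdr, Flt1, Nrp1 and Nrp2 lie at 0.336 to 2.25 FPKM in the Glut2L libraries and at 7.86 to 30.2 FPKM in the Glut2H libraries.

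The other ligands were far lower than Vegfa and did not share its pattern. Vegfb, a ligand of VEGFR1, had 6.90 FPKM in the library labelled Glut2L STZ and 1.91 in that labelled Glut2H STZ, and 6.78 in the one labelled Glut2L control and 5.48 in the one labelled Glut2H control. The Glut2H STZ library alone was low, and all 4 intervals overlapped. Pgf, which encodes placental growth factor, another ligand of VEGFR1, had 2.09 FPKM in the Glut2L STZ library and 14.1 in the Glut2H STZ library, and 2.37 in the Glut2L control and 9.41 in the Glut2H control library. Both Glut2H libraries were above both Glut2L libraries, as they were for the receptors, with intervals that overlapped. Vegfc, the lymphatic growth factor that binds VEGFR3, was listed at 0 in the libraries labelled Glut2L STZ and Glut2L control and had 1.18 and 0.827 FPKM in those labelled Glut2H STZ and Glut2H control. Vegfa made up 91.6% and 90.1% of the summed FPKM of the 4 ligands in the libraries labelled Glut2L STZ and Glut2L control, against 83.6% and 82.0% in those labelled Glut2H STZ and Glut2H control.

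Kdr and Flt1, the receptors that bind VEGF-A, stood at 0.336 to 2.25 FPKM in the libraries labelled Glut2L and at 7.86 to 30.2 FPKM in those labelled Glut2H. Kdr (ENSMUSG00000062960, chromosome 5, 75932827 to 75978458) had 0.687 FPKM in the Glut2L STZ library and 22.2 in the Glut2H STZ library, and 2.25 in the Glut2L control and 30.2 in the Glut2H control library. Both Glut2L values lay below both Glut2H values, and within each pair the intervals did not overlap. The FPKM was 32.4-fold lower in the Glut2L STZ library than in the Glut2H STZ library and 13.4-fold lower in the Glut2L control library than in the Glut2H control library. Flt1 (ENSMUSG00000029648, chromosome 5, 147561604 to 147726011) had 0.336 FPKM in the Glut2L STZ library and 7.86 in the Glut2H STZ library, and 1.46 in the Glut2L control and 23.9 in the Glut2H control library. It was 23.4-fold lower in the Glut2L library after STZ and 16.4-fold lower in control mice, again with intervals apart. Flt1 also encodes a soluble form that binds VEGF-A without signalling, which a gene table does not separate.

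The neuropilins were likewise low in both libraries labelled Glut2L, and for Nrp1 the gap between the gates was nearly the same with and without STZ. Nrp1 (ENSMUSG00000025810, chromosome 8, 128358604 to 128503363) had 0.857 FPKM in the library labelled Glut2L STZ and 16.3 in that labelled Glut2H STZ, and 0.905 in the one labelled Glut2L control and 18.3 in the one labelled Glut2H control. Its level was 19.0-fold lower in the Glut2L library after STZ and 20.2-fold lower in control mice. The microRNA gene Mir1903 covers 80 of the 9785 exonic bases of Nrp1, the sole overlap with exons of another gene among the 10. Nrp2 (ENSMUSG00000025969, chromosome 1, 62703285 to 62818695) had 0.678 FPKM in the Glut2L STZ library and 19.8 in the Glut2H STZ library, and 1.37 in the Glut2L control and 23.2 in the Glut2H control library. It was 29.1-fold lower in the Glut2L library after STZ and 16.9-fold lower in control mice. For both genes the intervals of the gates did not overlap in either pair. As ratios of FPKM within a library, Nrp1 over Nrp2 was 1.26 in the Glut2L STZ library, where both were below 1 FPKM, 0.823 in the Glut2H STZ, 0.658 in the Glut2L control and 0.787 in the Glut2H control library.

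Flt4 and Tek were the lowest receptors. Flt4 (ENSMUSG00000020357, chromosome 11, 49609263 to 49652739), which encodes VEGFR3, the receptor of lymphatic vessels, was listed at 0 in the Glut2L STZ library and had 1.08 FPKM in the Glut2H STZ library, and it had 0.534 in the Glut2L control and 3.14 in the Glut2H control library. The Glut2H control library was the highest, and the control intervals overlapped. Tek (ENSMUSG00000006386, chromosome 4, 94739289 to 94874976) had 0.2505 FPKM in the Glut2L STZ library and 0.483 in the Glut2H STZ library, and 0.469 in the Glut2L control and 1.89 in the Glut2H control library. Tek reached 1 FPKM in the Glut2H control library alone, and all its intervals overlapped.

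Set over all 10 genes, the gates differed in the receptors and less evenly in the ligands. After STZ 9 of the 10 were measured, and 7 were lower by 2-fold or more in the Glut2L library (Vegfc, Pgf, Kdr, Flt1, Flt4, Nrp1 and Nrp2) beside 17.8% of all 15839 genes measured. Vegfb was higher by that measure (1.44), beside 22.9% of all genes. In control mice 9 of the 10 were measured, 6 were lower by 2-fold or more in the Glut2L library (Pgf, Kdr, Flt1, Flt4, Nrp1 and Nrp2) beside 18.5% of 16234, and 0 were higher beside 19.7%. Vegfc, Kdr, Flt1, Flt4, Nrp1 and Nrp2 entered the STZ count through the Glut2H library alone, in which Vegfc and Flt4 just passed 1 FPKM. In control mice Flt4, Nrp1 and Tek were measured through the Glut2H library alone. For these genes a lower Glut2L value was fixed by the filter, though its size was not. With intervals that also did not overlap, Kdr, Flt1, Nrp1 and Nrp2 remained in both pairs, beside 4.15% of all genes after STZ and 4.19% in control mice. None was higher with intervals apart, beside 0.972% of all genes after STZ and 0.511% in control mice. Flt4 after STZ was listed at 0 with an interval of no width. With a pseudocount of 5 Vegfb after STZ (0.78), Vegfc after STZ (-0.31), Pgf in control mice (-0.97), and Flt4 after STZ (-0.28) and in control mice (-0.56) no longer reached 2-fold. At an equal sum over all rows, Pgf in control mice (-0.97) and, after STZ, Vegfc (-0.87) and Flt4 (-0.81) did not reach it either.

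The median difference of the receptors was -3.22 after STZ (5 measured) and -3.30 in control mice (6 measured), beside medians of all measured genes of 0.23 and 0.15. All 5 receptors measured after STZ passed 1 FPKM through the Glut2H library alone, and with Tek counted the median was -2.97. Receptors ranged from -3.78 for Kdr to -1.06 for Flt4 after STZ, and from -3.35 for Nrp2 to -0.98 for Tek in control mice. The median of the ligands was -0.48 after STZ (4 measured) and 0.21 in control mice (3 measured), and the ligands ran from -2.29 for Pgf to 1.44 for Vegfb after STZ. The STZ pair and the control pair share no library. In such bulk samples fewer cells of a type and less RNA per cell cannot be told apart. Setting the summed FPKM of all rows equal between libraries moved the median of all genes to 1.18 after STZ and 0.87 in control mice, and the Vegfa difference to 1.28 and 1.03, while Kdr stayed at -3.01 and -2.59.

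**Figure D2:**
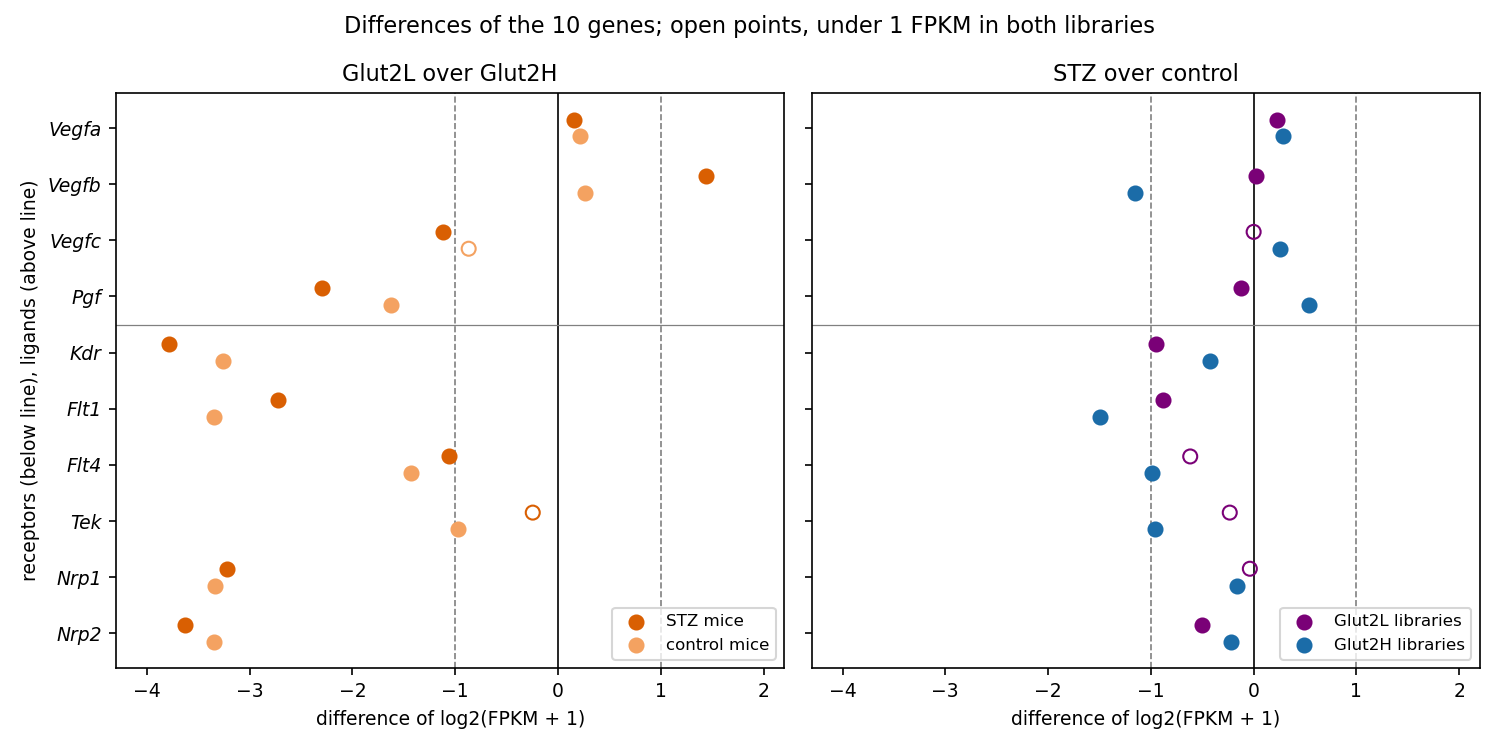
Differences of log2(FPKM + 1) (horizontal axes) of the 10 genes (rows), Glut2L over Glut2H at left and STZ over control at right, with dashed lines at 2-fold and open points for genes under 1 FPKM in both libraries. In the left panel Kdr, Flt1, Nrp1 and Nrp2 lie between -3.78 and -2.73 in both pairs while Vegfa lies at 0.16 after STZ (-0.08 once the all-gene median is centred on 0) and at 0.21 in control mice.

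Ratios within a library do not depend on how libraries were scaled to each other. The summed FPKM of the 4 ligands was 106.9 in the library labelled Glut2L STZ and 105.0 in that labelled Glut2H STZ, and 92.4 in the one labelled Glut2L control and 87.4 in the one labelled Glut2H control. It varied little on the deposited scale, but unlike the ratios this sum depends on the scaling. At an equal sum over all rows the Vegfa difference between the gates was 1.28 after STZ and 1.03 in control mice. The summed FPKM of the 6 receptors was 2.81 in the Glut2L STZ library and 67.7 in the Glut2H STZ library, and 6.99 in the Glut2L control and 100.7 in the Glut2H control library. Ligand over receptor was accordingly 38.1 in the Glut2L STZ library against 1.55 in the Glut2H STZ library, and 13.2 in the Glut2L control library against 0.868 in the Glut2H control library. In the Glut2H control library alone did the 6 receptors sum to more than the ligands. Without the neuropilins, ligand over receptor was 1.48 there, so that order held only with them counted.

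Single pairs of ligand and receptor kept the order of the gates. Vegfa over Kdr was 142.5 in the library labelled Glut2L STZ against 3.95 in that labelled Glut2H STZ, and 37.0 in the Glut2L control library against 2.37 in the Glut2H control library. Pgf over Flt1 was 6.21 in the Glut2L STZ library against 1.80 in the Glut2H STZ library, and 1.63 in the Glut2L control library against 0.393 in the Glut2H control library. Both ratios were also higher after STZ than in control mice within each gate. The Glut2L ratios divide by receptor levels of 0.336 to 2.25 FPKM, so small changes of the receptor move them far.

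**Figure D3:**
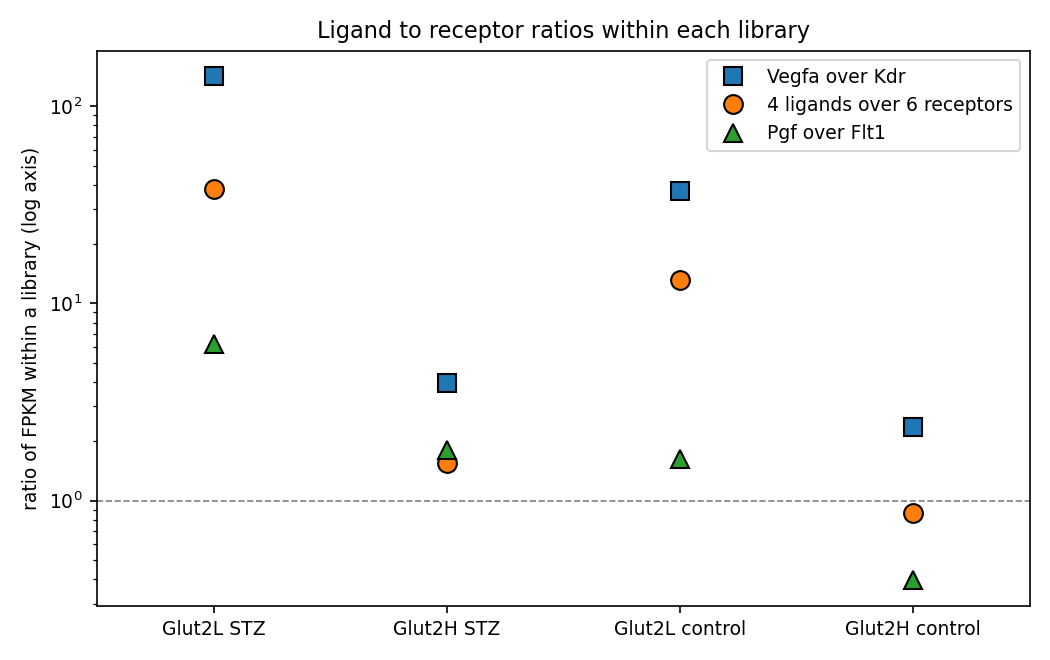
Ratios of FPKM within each library (vertical axis, log scale) for Vegfa over Kdr, the 4 ligands over the 6 receptors and Pgf over Flt1. All 3 ratios are higher in the Glut2L library than in the Glut2H library of the same treatment, with Vegfa over Kdr at 142.5 against 3.95 after STZ and 37.0 against 2.37 in control mice.

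Markers of vessel, stromal and immune cells were lower in the libraries labelled Glut2L along with the receptors. The share of all genes lower by 2-fold or more in the Glut2L library was 17.8% after STZ and 18.5% in control mice. Of 13 endothelial markers other than the 10 genes, 11 of 12 measured were that much lower after STZ (median -2.55). In control mice 10 of 11 endothelial markers were (median -2.36). Their summed level was 21.6 and 41.8 FPKM in the libraries labelled Glut2L STZ and Glut2L control, against 288.3 and 312.6 FPKM in those labelled Glut2H STZ and Glut2H control, and Cldn5 and Sox17 were listed at 0 in both Glut2L libraries. Egfl7 had 3.73 FPKM in the Glut2L STZ library and 116.4 in the Glut2H STZ library, and Cdh5, which encodes the junction protein VE-cadherin, had 0.814 in the Glut2L control and 24.0 in the Glut2H control library. The exception was Vwf, the von Willebrand factor gene, whose values of 4.14 and 3.84 FPKM in the Glut2L STZ and Glut2L control libraries lay above the 1.90 and 3.40 FPKM of the Glut2H STZ and Glut2H control libraries (named after its values were seen). Some of these markers passed 1 FPKM through the Glut2H library alone, and over all 13 the medians were -2.19 after STZ and -2.24 in control mice.

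Again, the counts stand beside 17.8% of all genes lower by 2-fold or more in the Glut2L library after STZ and 18.5% in control mice. Of 14 pericyte and stromal markers, 12 of 12 measured were that much lower after STZ (median -3.68) and 12 of 13 in control mice (median -3.01). The exception was Kcnj8, at 1.54 FPKM in the Glut2L control and 0.157 in the Glut2H control library (named after its values were seen). Some of these markers, such as Col1a1 and Pdgfra after STZ, passed 1 FPKM through the Glut2H library alone, which fixed a lower Glut2L value. Over all 14 the medians were -3.47 after STZ and -3.00 in control mice. The list summed to 21.9 and 47.4 FPKM in the libraries labelled Glut2L STZ and Glut2L control, against 711.0 and 823.4 FPKM in those labelled Glut2H STZ and Glut2H control, and Des was listed at 0 in the Glut2L STZ library. Of 12 immune markers, 10 of 11 measured were lower after STZ (median -4.01) and 11 of 11 in control mice (median -4.299), with sums of 117.9 and 92.8 FPKM in the Glut2L STZ and Glut2L control libraries against 2373 and 2075 FPKM in the Glut2H STZ and Glut2H control libraries. Cd3e was listed at 0 in both Glut2L libraries, and over all 12 immune markers the medians were -3.94 after STZ and -4.27 in control mice. The 4 lymphatic markers summed to 1.43 and 0.887 FPKM in the Glut2L STZ and Glut2L control libraries, against 14.2 and 27.3 FPKM in the Glut2H STZ and Glut2H control libraries. The part of these cell types in the receptor differences was not tested.

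Beta cell markers went the other way, and Vegfa followed neither group. Of 15 beta cell markers, 13 were higher by 2-fold or more in the Glut2L library after STZ (median 1.55), beside 22.9% of all genes. In control mice 15 were (median 1.78), beside 19.7%. Vegfa differed by 0.16 and 0.21. The smallest difference of that list in control mice was 1.11, for the transcription factor gene Mafa, at 105.7 FPKM in the Glut2L control library and 48.4 in the Glut2H control library. Vegfa over Mafa was 0.771 in the Glut2L STZ library against 1.84 in the Glut2H STZ library, and 0.788 in the Glut2L control library against 1.48 in the Glut2H control library.

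**Figure D4:**
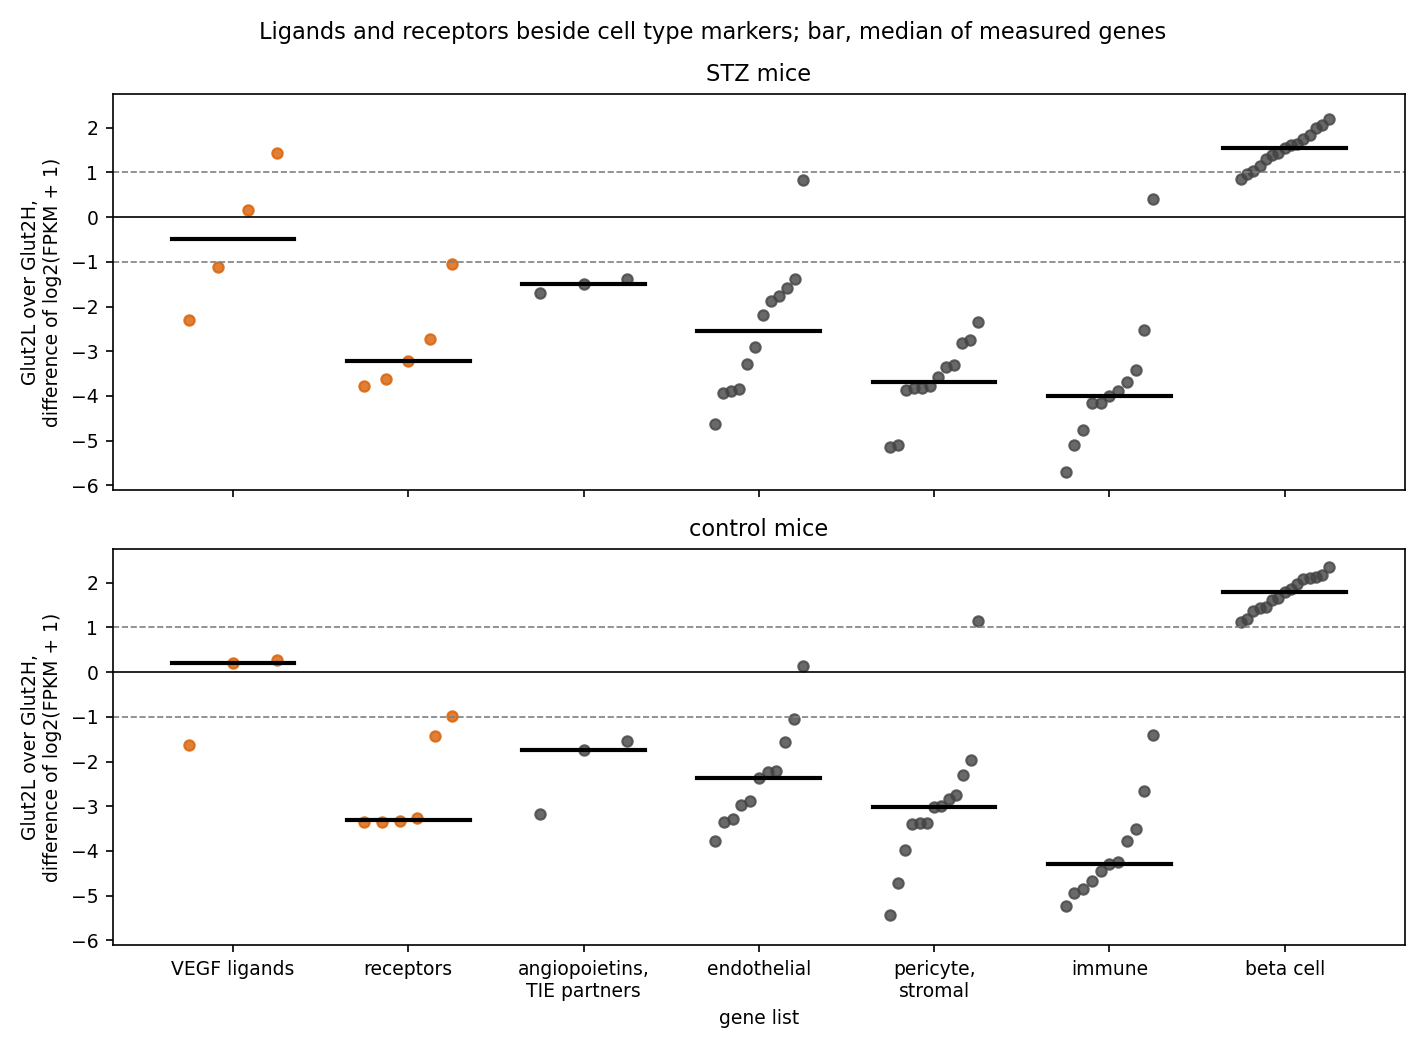
Differences of log2(FPKM + 1) between the gates (vertical axes, Glut2L over Glut2H) for measured genes of 7 lists (horizontal axis), in STZ mice above and control mice below; points are genes, bars are medians and dashed lines mark 2-fold. The receptor medians of -3.22 and -3.30 lie beside endothelial medians of -2.55 and -2.36, and beta cell medians lie at 1.55 and 1.78.

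Per 100 FPKM of endothelial markers, the 4 receptor kinases together had 5.90 and 11.3 FPKM in the libraries labelled Glut2L STZ and Glut2L control, against 10.98 and 18.9 FPKM in those labelled Glut2H STZ and Glut2H control. Kdr alone had 3.18 and 5.39 FPKM per 100 in the Glut2L STZ and Glut2L control libraries, against 7.71 and 9.66 FPKM in the Glut2H STZ and Glut2H control libraries. The gap between the gates was thus far smaller on this scale than on the FPKM scale, and the Glut2L values remained the lower ones. Division by any sum that is itself lower in the Glut2L libraries narrows such a gap. The stromal and immune sums were also lower there, and scales built on them were not computed. The endothelial sum includes Vwf, which was not lower in Glut2L. The part of endothelial cells was not tested.

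The comparison of STZ with control within a gate sets cells sorted from STZ mice beside cells sorted from control mice. A change within cells and a change in which cells were sorted cannot be told apart. In the libraries labelled Glut2L 6 of the 10 genes were measured and 0 differed at least 2-fold, beside 10.2% of 15602 genes that were higher and 11.1% that were lower. With intervals apart the count was also 0, beside 0.32% of all genes higher and 0.41% lower. Kdr came nearest, at 0.687 FPKM in the Glut2L STZ library and 2.25 in the Glut2L control library (-0.95), then Flt1, at 0.336 FPKM in the Glut2L STZ library and 1.46 in the Glut2L control library (-0.88). Both are low levels at which the pseudocount sets the size: with a pseudocount of 0.1 the differences were -1.58 and -1.84, and at an equal sum they were -1.05 and -1.04. The endothelial list had a median of -0.83 over 7 measured genes in this comparison, with Plvap at 0.795 and 5.32 FPKM in the Glut2L STZ and Glut2L control libraries.

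In the libraries labelled Glut2H all 10 genes were measured, and 2 were lower by 2-fold or more after STZ beside 13.8% of 15558 genes, and 0 were higher beside 9.62%. These were Flt1, at 7.86 FPKM in the Glut2H STZ library and 23.9 in the Glut2H control library (-1.49), and Vegfb, at 1.91 FPKM in the Glut2H STZ library and 5.48 in the Glut2H control library (-1.15, or -0.60 with a pseudocount of 5). The intervals overlapped for both, so the count with intervals apart was 0, beside 0.379% of all genes higher and 0.656% lower. Flt4 (-0.99) and Tek (-0.96) lay just inside 2-fold and passed it with a pseudocount of 0.1 (-1.46 and -1.77), as Flt4 did at an equal sum (-1.02). Kdr was at -0.43, and Nrp1 (-0.16) and Nrp2 (-0.22) differed least of the receptors. All 6 receptors were below 0, with a median of -0.69, while Vegfa (0.29), Vegfc (0.25) and Pgf (0.54) were above 0, beside a median of all genes of -0.07. Vegfb was the ligand that was lower.

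Kdr and Flt1 stood in another proportion after STZ. Kdr over Flt1 was 2.83 in the library labelled Glut2H STZ against 1.26 in that labelled Glut2H control, and 2.04 in the Glut2L STZ library against 1.55 in the Glut2L control library. In the Glut2L STZ library both genes were below 1 FPKM, at 0.687 and 0.336, so its ratio is uncertain. Endothelial markers in the Glut2H libraries were split, with 2 of 12 at least 2-fold lower after STZ and a median of -0.29. This count is near the 13.8% of all genes that were lower. Cdh5 had 10.1 FPKM in the Glut2H STZ library and 24.0 in the Glut2H control library, and Plvap, which encodes a protein of capillary diaphragms, had 26.5 in the Glut2H STZ library and 60.3 in the Glut2H control library. Egfl7 had 116.4 FPKM in the Glut2H STZ library and 66.5 in the Glut2H control library, and Esam had 15.5 in the Glut2H STZ library and 8.44 in the Glut2H control library. The part of the endothelial share in the Flt1 difference was not tested.

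Angiopoietins and the partners of TIE2 lay on the side of the receptors. Angpt2, a ligand of TIE2 made mainly by endothelial cells, had 4.16 FPKM in the Glut2L STZ library and 15.9 in the Glut2H STZ library, and 2.34 in the Glut2L control and 29.3 in the Glut2H control library. It was at least 2-fold lower in the Glut2L library in both pairs (-1.71 and -3.18), with intervals that overlapped. Angpt1, the activating ligand of TIE2, was at or below 0.0978 FPKM in every library, and the antisense gene Gm17473 covers 14.2% of its exonic bases, which makes its value uncertain. Angpt4 was listed at 0 in both Glut2L libraries and had 0.746 and 0.611 FPKM in the Glut2H STZ and Glut2H control libraries. Tie1, a receptor kinase related to TIE2, was listed at 0 in the Glut2L STZ library and had 1.83 FPKM in the Glut2H STZ library, and 0.344 in the Glut2L control and 3.48 in the Glut2H control library. Ptprb, the endothelial phosphatase that acts on TIE2, had 0.222 FPKM in the Glut2L STZ library and 2.21 in the Glut2H STZ library, and 0.498 in the Glut2L control and 3.34 in the Glut2H control library. Of the 5 genes 3 were measured in each gate comparison, and all 3 were at least 2-fold lower in the Glut2L library. The shares of all genes were 17.8% after STZ and 18.5% in control mice. Tie1 and Ptprb passed 1 FPKM through the Glut2H libraries alone, so for them a lower Glut2L value was fixed by the filter.

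The neuropilins also bind class 3 semaphorins, which signal through plexins. Of 12 such genes 9 were measured in each pair. In the Glut2L library after STZ, 4 were lower by 2-fold or more and 2 were higher (median -0.95), and in control mice 4 were lower and 1 was higher (median -0.59). The higher counts stood beside 22.9% and 19.7% of all genes and the lower counts beside 17.8% and 18.5%. Of the lower genes after STZ, Sema3f and Sema3g passed 1 FPKM through the Glut2H library alone, which fixed a lower Glut2L value. Plxna3 passed it through the Glut2L library alone in both pairs, which fixed a higher one. Over all 12 the medians were -0.43 after STZ and -0.53 in control mice. Plxnd1, a plexin of endothelial cells, had 3.32 FPKM in the Glut2L STZ library and 29.4 in the Glut2H STZ library, and 1.44 in the Glut2L control and 24.1 in the Glut2H control library. Plxna3 was opposite, with 5.20 FPKM in the Glut2L STZ library and 0.810 in the Glut2H STZ library, and 7.66 in the Glut2L control and 0.933 in the Glut2H control library. Sema3e, whose product binds plexin D1 directly, had 6.54 FPKM in the Glut2L STZ library and 1.70 in the Glut2H STZ library.

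Hypoxia-inducible factors are the best known activators of Vegfa transcription. Epas1, which encodes HIF-2α, had 0.0756 FPKM in the library labelled Glut2L STZ and 7.53 in that labelled Glut2H STZ, and 0.634 in the one labelled Glut2L control and 8.65 in the one labelled Glut2H control. Hif1a had 12.1 FPKM in the Glut2L STZ library and 27.6 in the Glut2H STZ library, and 14.0 in the Glut2L control and 31.1 in the Glut2H control library. Of the 9 genes of oxygen sensing, 3 of 8 measured were at least 2-fold lower in the Glut2L library after STZ, beside 17.8% of all genes. In control mice 3 of 7 were, beside 18.5%. In both pairs 0 were higher, beside 22.9% and 19.7%. Epas1 in both pairs and Egln3 after STZ passed 1 FPKM through the Glut2H library alone, which fixed a lower Glut2L value. Egln2, an oxygen-sensing prolyl hydroxylase gene, was the highest by difference, at 32.5 FPKM in the Glut2L STZ library and 16.2 in the Glut2H STZ library (0.96). The 14 other targets of these factors had medians of 0.03 after STZ and 0.06 in control mice. Among them Adm, which encodes the vessel peptide adrenomedullin, had 0.726 FPKM in the Glut2L STZ library and 8.12 in the Glut2H STZ library. It was listed at 0 in the Glut2L control library and had 6.48 FPKM in the Glut2H control library. Ankrd37 had 8.27 FPKM in the Glut2L STZ library and 2.05 in the Glut2H STZ library. In control mice Ankrd37 showed no such gap, at 14.8 FPKM in the Glut2L control and 15.9 in the Glut2H control library.

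By the distance between log2(FPKM + 1) values centred over the 4 libraries, the protein-coding genes most like Kdr included Cmtm3, Eng, Ptgs1 and Hal, at 0.10 to 0.25 from it. Eng encodes endoglin of endothelial cells. Eng had 2.25 FPKM in the library labelled Glut2L STZ and 47.2 in that labelled Glut2H STZ, and 4.78 in the one labelled Glut2L control and 58.1 in the one labelled Glut2H control. Those most like Vegfa were Pias2, Creb1, Bbip1, Gstm1 and Rab34, at 0.05 to 0.07. Of 8584 genes with a mean of at least 5 FPKM, 28 lay within 0.5 of Kdr and 1690 within 0.5 of Vegfa, so the flat profile of Vegfa was common and that of Kdr was not.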

How the data were processed

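The members and gene lists were chosen with earlier results of these data known. Total RNA libraries were stranded and made after removal of ribosomal RNA (TruSeq Stranded Total RNA with Ribo-Zero Gold), per the labels' protocols. The authors deposited FPKM, with a lower and upper bound and a status flag, made with TopHat2, SAMtools and Cuffdiff on GRCm38 (mm10), per the submitters' processing notes. Versions, annotation, strand setting and library scaling are not stated there. A few interval lower bounds deposited by the authors (3 per library) had overflowed and were not used. The per-sample tables hold the same FPKM (0 of 156680 values differed). Low values showed no shared step of 1 fragment: the ratios of genes under 0.2 FPKM were spread, with at most 3.33% to 5.06% in any bin of 0.05 (log2), so depth is unknown.

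Computed here (Python 3.11.15, pandas 2.3.3, numpy 2.4.6): log2(FPKM + 1) differences in 4 comparisons over genes with at least 1 FPKM in either library and status OK in both, counts past 2-fold, list medians and ratios within a library. No test was run, since each group is 1 library. Of 164 list symbols 163 matched by symbol and 1 by Ensembl ID. Positions are from GENCODE M21. Named genes were the members, Ins1, Ins2, Slc2a2, the angiopoietins with TIE partners, the 2 highest and 2 lowest genes of each list with at least 5 FPKM, and the 5 genes most like Vegfa and Kdr, of which 1 is not reported here. A few others are marked as named after their values were seen. The alternatives were pseudocounts, filters, 3 scalings, intervals and subsets of members.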

Additional observations from a re-analysis of the deposited data

Results flagged for a closer look

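Of the 10 genes and the 5 angiopoietins with their TIE partners, 4 had STZ differences of opposite sign in the gates, none of which was tested, with 1 library per group. The share of all genes with opposite signs was not computed. Vegfb was at 0.02 with STZ in the libraries labelled Glut2L and -1.15 in those labelled Glut2H, a difference of 1.18. At an equal sum without the 20 highest rows the Glut2L value was -0.01, and the opposite sign was lost. Pgf was at -0.13 in the Glut2L libraries and 0.54 in the Glut2H libraries, a difference of -0.67. Angpt2 was at 0.63 in the Glut2L libraries and -0.85 in the Glut2H libraries, a difference of 1.47. Angpt1, at or below 0.0978 FPKM throughout, was at 0.08 in the Glut2L libraries and -0.12 in the Glut2H libraries, a difference of 0.20, and its gate difference also changed sign, at 0.13 after STZ and -0.07 in control mice.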

How the results depend on the processing

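No paired analysis was possible because each group holds 1 library. Of 270 single-gene values recomputed under the alternatives, 234 kept their side of 2-fold and moved by at most 1 on the log2 scale, 36 did not, and none of those past 2-fold changed sign. The receptor medians moved from -3.22 after STZ and -3.30 in control mice to -1.86 and -2.06 with a pseudocount of 5, and that for STZ over control in the Glut2L libraries from -0.88 to -1.58 with one of 0.1. The ligand median after STZ went from -0.48 to -1.27 with a pseudocount of 0.1 and to 1.28 at an equal sum, a setting with an all-gene median of 1.18. The sign of the ligand medians depended on whether Vegfc was counted: a filter of 5 FPKM, without Vegfc, gave 0.16 after STZ, and no filter, with Vegfc, gave -0.33 in control mice, against 0.21. That for STZ in the Glut2L libraries, 0.02, was -0.01 without the 20 highest rows. Of the 10 genes, 1 differed by at least 2-fold between the gates in its STZ effect, against 4 with a pseudocount of 0.1 and 0 with 5. The same share over all genes was not computed, so these counts cannot be judged against it.

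Ligand over receptor changed with the members: without the neuropilins it was 83.9, 3.32 and 1.48 in the Glut2L STZ, Glut2H STZ and Glut2H control libraries, as Vegfa over Kdr 142.5, 3.95, 37.0 and 2.37 in the Glut2L STZ, Glut2H STZ, Glut2L control and Glut2H control libraries, and without Vegfa 3.20, 0.254, 1.31 and 0.156.

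Counts over all genes moved by over 1.5 times with a pseudocount of 5 and with intervals apart, mostly with a filter of 5 FPKM, and for 3 counts at an equal sum. They did not with a pseudocount of 0.1, no filter, the median set to 0 or the 20 highest rows left out. Genes at least 2-fold higher in Glut2L were 3634 after STZ and 3203 in control mice, against 9508 and 7351 at an equal sum, 1471 and 1418 with a pseudocount of 5, 154 and 83 with intervals apart, and 2335 after STZ with a filter of 5 FPKM. Genes at least 2-fold lower were 2814 and 3002, against 1863 and 1937 with a filter of 5 FPKM, 1443 and 1462 with a pseudocount of 5, 658 and 681 with intervals apart, and 1595 after STZ at an equal sum. The higher share of calls was 56.4% and 51.6%, but 85.6% and 78.6% at an equal sum and 43.1% and 43.0% with the median set to 0. For STZ over control, higher counts were 1585 in the Glut2L libraries and 1496 in the Glut2H libraries, against 857 and 910 with a filter of 5 FPKM, 537 and 570 with a pseudocount of 5 and 50 and 59 with intervals apart. Lower counts were 1726 and 2153, against 926 and 1114, 598 and 671, and 64 and 102 under the same alternatives. The filter of 5 FPKM left no receptor in the Glut2L STZ comparison. The cause of these shifts was not tested beyond the fewer genes that a filter leaves. Unknown depth and the absence of replicates limit every value.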

Other observations

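Other growth factors of vessels were lower in the libraries labelled Glut2L, unlike Vegfa. Of 10 such genes, 7 of 8 measured were lower by 2-fold or more after STZ (median -2.12), beside 17.8% of all genes. In control mice 8 of 9 were (median -2.38), beside 18.5%. Over all 10 the medians were -1.51 and -2.20. Some, such as Fgf2 and Pdgfb after STZ, passed 1 FPKM through the Glut2H library alone, which fixed a lower Glut2L value. Fgf1 was higher in control mice, at 6.03 FPKM in the Glut2L library and 0.171 in the Glut2H library. Fgf2 was listed at 0 in the Glut2L STZ library and had 7.30 FPKM in the Glut2H STZ library, and 0.796 in the Glut2L control and 38.8 in the Glut2H control library. Pdgfb, which recruits pericytes, had 0.338 FPKM in the Glut2L STZ library and 10.4 in the Glut2H STZ library.

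Genes whose products restrain vessel growth were on the same side. Of 8 such genes 6 were measured, with 5 at least 2-fold lower in the Glut2L library after STZ (median -3.64) and 6 in control mice (median -2.73). The shares of all genes were 17.8% and 18.5%, and over all 8 the medians were -2.74 and -2.54. Thbs1, which encodes thrombospondin 1, had 7.24 FPKM in the library labelled Glut2L STZ and 403.7 in that labelled Glut2H STZ, and 17.4 in the one labelled Glut2L control and 259.7 in the one labelled Glut2H control. Serpinf1, which encodes pigment epithelium-derived factor, had 11.8 FPKM in the Glut2L STZ library and 1.58 in the Glut2L control library, against 22.4 and 44.9 FPKM in the Glut2H STZ and Glut2H control libraries. Widely expressed kinases and adaptors used by VEGF receptors had medians of 0.28 after STZ and 0.26 in control mice, near the medians of all genes of 0.23 and 0.15. Shb, an adaptor that binds VEGFR2, had 16.3 FPKM in the Glut2L control library and 3.41 in the Glut2H control library.

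Among other cell types, the 8 measured acinar markers had a median of -3.77 between the gates after STZ and -0.43 in control mice. The 9 markers of other endocrine cells had medians of 0.78 and 0.83, and duct markers 1.09 and 0.41.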
